A study of Homo sapiens with 6 samples.

Results

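The transcription factor AP-1 was examined through the 10 genes FOS, FOSB, FOSL1, FOSL2, JUN, JUNB, JUND, ATF3, BATF3 and MAFF. They were taken by gene symbol from the platform's annotation, keeping for each gene the probe set of highest mean signal, and all 10 were found among the 18417 genes measured, each with 1 probe set of a single gene. The arrays held RNA from stable cells of A549, a human lung adenocarcinoma line. The first group, 3 arrays, came from stable cells with the genotype label H2AX knockdown (P1), and the second, 3 arrays, from control stable cells (C). Both groups were starved of serum overnight and then exposed for 48 h to VP-16 (etoposide), which traps topoisomerase II on cut DNA, so every array shows drug-treated cells and the comparison is of the 2 kinds of stable cells under the drug. The labels give neither the knockdown construct nor the number of clones behind each line, and the replicates are described as independent experiments, so the p-values below measure the spread between experiments of these lines.

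AP-1 is a family of dimers. JUN proteins pair with each other or with FOS proteins through a leucine zipper, and the dimer's basic region binds the palindrome TGANTCA or the longer element TGACGTCA. ATF3 and BATF3 are zipper proteins that pair with JUN proteins, and MAFF is a small MAF protein that lacks a transactivation domain. FOS and JUN are the classical immediate early genes, induced within minutes by growth factors through the ERK kinases and by stress, DNA damage included, through the JNK kinases.

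The promoters of JUN, ATF3, JUND and MAFF are shown because each holds a match to the AP-1 and ATF family element, through which the JUN promoter is known to be bound by JUN and ATF2 dimers. Sequences are those of RefSeq on GRCh38.p14, from 250 bases before to 50 bases after the annotated start, 5′ to 3′ on the gene's strand, with matches to TGACNTCA or TGANTCA in capitals.
JUN, chr1:58783998-58784297, minus strand: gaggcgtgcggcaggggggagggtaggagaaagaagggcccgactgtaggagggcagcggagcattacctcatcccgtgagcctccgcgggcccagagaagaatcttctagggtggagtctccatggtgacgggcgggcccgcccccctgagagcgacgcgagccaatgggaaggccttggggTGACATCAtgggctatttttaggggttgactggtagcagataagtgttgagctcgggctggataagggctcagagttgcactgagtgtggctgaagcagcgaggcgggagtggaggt
ATF3, first of 2 annotated starts, chr1:212565157-212565456, plus strand: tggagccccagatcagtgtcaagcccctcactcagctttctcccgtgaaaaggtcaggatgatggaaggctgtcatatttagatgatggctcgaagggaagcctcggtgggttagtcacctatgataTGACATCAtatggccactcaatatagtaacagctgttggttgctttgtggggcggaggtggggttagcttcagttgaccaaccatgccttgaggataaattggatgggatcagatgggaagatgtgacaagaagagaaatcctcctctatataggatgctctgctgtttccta
JUND, chr19:18281573-18281872, minus strand: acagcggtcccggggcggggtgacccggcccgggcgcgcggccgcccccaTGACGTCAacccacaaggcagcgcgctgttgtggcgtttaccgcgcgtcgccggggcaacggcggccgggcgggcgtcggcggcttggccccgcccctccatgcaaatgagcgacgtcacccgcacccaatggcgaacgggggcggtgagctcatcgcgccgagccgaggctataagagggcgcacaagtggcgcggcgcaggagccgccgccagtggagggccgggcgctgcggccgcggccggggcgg
MAFF, first of 2 annotated starts, chr22:38201744-38202043, plus strand: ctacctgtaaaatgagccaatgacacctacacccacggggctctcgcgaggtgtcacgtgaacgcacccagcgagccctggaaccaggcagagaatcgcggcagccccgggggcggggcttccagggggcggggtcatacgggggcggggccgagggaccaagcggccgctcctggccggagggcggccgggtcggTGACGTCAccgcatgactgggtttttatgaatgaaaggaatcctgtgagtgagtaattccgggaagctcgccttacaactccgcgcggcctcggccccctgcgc
Both strands were searched, and 8 of the 10 genes were matched to 10 promoter windows. JUN and ATF3 held the same 8 letters, TGACATCA, which began 67 and 123 bases before the start. JUND and MAFF held the full palindrome TGACGTCA, which began 200 and 54 bases before it. The 7-letter palindrome occurred once, in FOSL2, as TGACTCA beginning at base 5 after the start. TGACNTCA, which includes every TGACGTCA, was present in 4 of the 10 windows and in 7.72% of the 35116 promoter windows of the genome, TGACGTCA in 2 and 1.85%, and TGANTCA in 1 and 7.71%. A further 4 windows, 1 each of FOS, FOSB, JUNB and ATF3, held TATAAA (11.5% of all windows), and in FOS, FOSB and JUNB it began 33, 30 and 31 bases before the start. A match is a stretch of letters and was not measured as a binding site here.

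The targeted gene was not lower in the arrays that carry the knockdown label. H2AX read 5.28, 5.17 and 5.49 (log2 signal) under the knockdown label and 5.11, 5.27 and 5.26 in control cells, and the groups overlapped. The difference was 0.10 and its 95% interval ran from −0.25 to 0.45 (limma adjusted p = 0.823). Directions are therefore those of the label, not of a measured loss of H2AX. Knockdown-labelled replicate 1 stood apart from the rest: its SD over all probe sets was 1.60, against 1.71 to 1.86 in the other 5 arrays. Differences also went with brightness. With genes cut into 5 bins of equal size by mean signal, the median difference was −0.25 in the brightest bin and 0.15 in the dimmest. Of the 10 AP-1 genes 5 lay in the brightest bin and 0 in the dimmest. The plot of their differences with 95% intervals shows each of the 10 beside the median of its own bin. The text below gives the range of the genes lower than their bins and of those higher.

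No AP-1 gene passed the threshold of an adjusted p under 0.05. JUN, FOSL1, FOS and ATF3 had the 4 lowest differences, from −0.61 to −0.34 on the log2 scale, while JUND and MAFF lay within 0.05 of 0 and FOSB and BATF3 read above it. The differences, knockdown-labelled minus control, were below 0 for 8 of the 10, against 51.5% of all genes, 85.3% of those in the brightest bin, which holds 5 AP-1 genes, and 66.1% of those in the next bin, which holds 2. After quantile normalization 6 of the 10 were below 0, beside 56.2% of all genes, and after cyclic loess 5, beside 54.1%. In the values as deposited, the median difference of the 10 was −0.18, against −0.01 over all genes. The median over genes was −0.25 in the brightest bin and −0.10 in the next. Set against the median of their own bins, JUN, FOS, FOSL1, ATF3 and MAFF were lower, from −0.41 (ATF3) to −0.02 (MAFF). JUNB, JUND, FOSL2, FOSB and BATF3 were higher by that measure, from 0.03 (JUNB) to 0.26 (FOSB). Of all genes 0.0326% passed the threshold in limma in either direction. At an unadjusted p under 0.05, 2 AP-1 genes (JUN and FOSL1) were lower and 0 higher, where 8.38% of all genes were lower and 3.78% higher. The groups did not overlap for 5 genes: JUN, FOS, FOSL1 and FOSL2 read lower under the knockdown label in every array, as did 9.82% of all genes, and FOSB read higher, as did 7.17%. These counts were computed over 10 genes chosen with results of these data known, and they are a description.

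JUN, the founding member and the main partner of the FOS proteins, had the largest difference. Its log2 signal in replicates 1, 2 and 3, the order kept below, was 4.58, 5.01 and 4.98 under the knockdown label, and 5.75, 5.14 and 5.51 in control cells. All 3 knockdown-labelled arrays lay below all 3 controls, but the gap between the groups, 5.01 to 5.14, was small beside the spread of the controls. The mean was 4.86 ± 0.24 in the knockdown-labelled arrays and 5.47 ± 0.31 in the control arrays (SD, n = 3 each). The difference was −0.61 ± 0.195 (SE), with a 95% interval of −1.03 to −0.19 and a limma adjusted p of 0.299 (unadjusted p = 0.00803, the 495th smallest of 18417 genes). The signal was 0.656 times that of the controls. The difference was −0.36 against the median of its brightness bin, and without knockdown-labelled replicate 1 it was −0.47 (adjusted p = 0.561). In RNA from whole cultures, fewer cells that express a gene and less RNA per cell cannot be told apart, here and below.

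JUNB and JUND, JUN paralogs that are weaker activators in many settings, did not separate the groups. JUNB read 5.40, 6.34 and 6.15 under the knockdown label, and 6.36, 6.01 and 6.18 in control cells. Replicate 1 alone was low, and the other knockdown-labelled arrays lay within the range of the controls. The difference of JUNB was −0.22 and its 95% interval ran from −0.71 to 0.26 (limma adjusted p = 0.705). Without that array the difference was 0.06. JUND, which is expressed in most resting cells, read 4.95, 5.21 and 5.18 under the knockdown label and 5.01, 5.35 and 5.12 in control cells. Its groups overlapped in part, with the lowest array labelled knockdown and the highest a control, and the difference was −0.04 with an interval of −0.40 to 0.31 (adjusted p = 0.928).

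**Figure D1:**
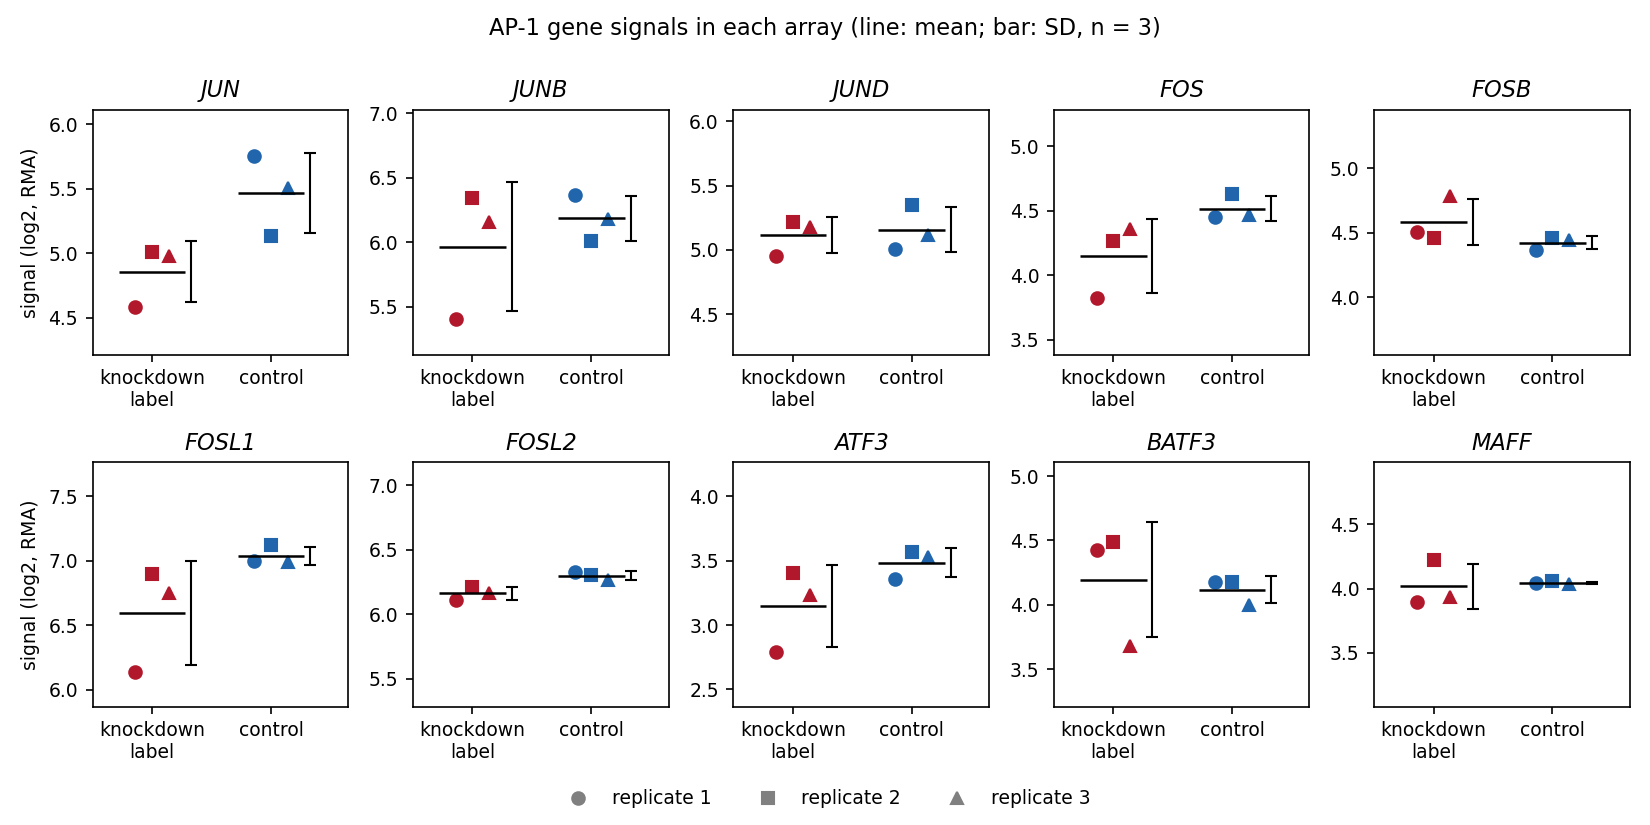
Log2 signal of each AP-1 gene in the 3 arrays labelled H2AX knockdown (left, red) and the 3 control arrays (right, blue), with the replicate number as the marker shape, the mean as a line and the SD as a bar beside it. Each panel spans the same number of log2 units, and knockdown-labelled replicate 1 (circle) is the lowest array in 8 of the 10 panels.

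Among the FOS genes, FOS, FOSL1 and FOSL2 read lower in every array under the knockdown label than in any control, with the larger differences in FOS and FOSL1. FOS, the immediate early partner of JUN, read 3.82, 4.26 and 4.36 under the knockdown label, and 4.45, 4.63 and 4.47 in control cells. The groups did not overlap, and replicate 1 was the lowest by far. The difference of FOS was −0.37 ± 0.178 (SE), with an interval of −0.75 to 0.02 and a limma adjusted p of 0.427. Without knockdown-labelled replicate 1 it was −0.20 (adjusted p = 0.812). FOSL1, which encodes FRA1, a FOS protein prominent in invasive carcinoma cells, read 6.14, 6.90 and 6.75 under the knockdown label and 7.00, 7.12 and 6.99 in control cells. Here too every knockdown-labelled array lay below every control, while the 3 controls were within 0.13 of each other. The mean was 6.60 ± 0.40 in knockdown-labelled arrays and 7.04 ± 0.07 in controls (SD, n = 3 each). The difference of FOSL1 was −0.44 ± 0.198 (SE), with an interval of −0.87 to −0.01 and a limma adjusted p of 0.403. It was −0.21 without knockdown-labelled replicate 1 (adjusted p = 0.799), −0.21 after quantile normalization and −0.16 after cyclic loess.

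FOSL2 and FOSB had smaller differences, of opposite sign. FOSL2, which encodes FRA2, was the steadiest of the 10 genes, and its 6 arrays spanned 0.22 log2 units. It read 6.11, 6.21 and 6.16 under the knockdown label and 6.33, 6.31 and 6.26 in control cells. The groups were narrowly apart. The difference was −0.14 and the interval ran from −0.46 to 0.19 (limma adjusted p = 0.728), smaller than the −0.25 that was the median of its brightness bin, and it turned above 0 after quantile normalization (0.10) and cyclic loess (0.12). FOSB, an immediate early relative of FOS, read 4.50, 4.46 and 4.78 under the knockdown label and 4.37, 4.46 and 4.44 in control cells. Its groups were apart by 0.002 log2 units, between knockdown-labelled replicate 2 and control replicate 2. The difference of FOSB was 0.16 with an interval of −0.19 to 0.51 (adjusted p = 0.7), and 0.06 without knockdown-labelled replicate 3.

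ATF3, a stress-induced repressor that responds to DNA damage and p53, had a dim probe set, at percentile 37.3 of the mean signals of all genes. It read 2.79, 3.41 and 3.24 under the knockdown label, and 3.36, 3.57 and 3.53 in control cells. The groups overlapped in 1 pair of arrays, since knockdown-labelled replicate 2 was above control replicate 1. The difference was −0.34 ± 0.184 (SE), with an interval of −0.74 to 0.06 and a limma adjusted p of 0.471. It was −0.16 without knockdown-labelled replicate 1 (adjusted p = 0.866), and −0.41 against its brightness bin, where the median gene was at 0.07. Signal over background was not measured for this probe set.

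BATF3, a JUN partner best known in dendritic cells, read 4.43, 4.49 and 3.68 under the knockdown label and 4.18, 4.17 and 4.00 in control cells. The knockdown-labelled arrays held both the highest and the lowest values, and replicate 3 was the low one. The difference of BATF3 was 0.08 and the interval ran from −0.37 to 0.53 (limma adjusted p = 0.898), and without that replicate it was 0.34. MAFF read 3.90, 4.22 and 3.94 under the knockdown label and 4.04, 4.05 and 4.04 in control cells, so that the controls lay within the range of the other group. Its difference was −0.03 with an interval of −0.37 to 0.32 (adjusted p = 0.953).

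**Figure D2:**
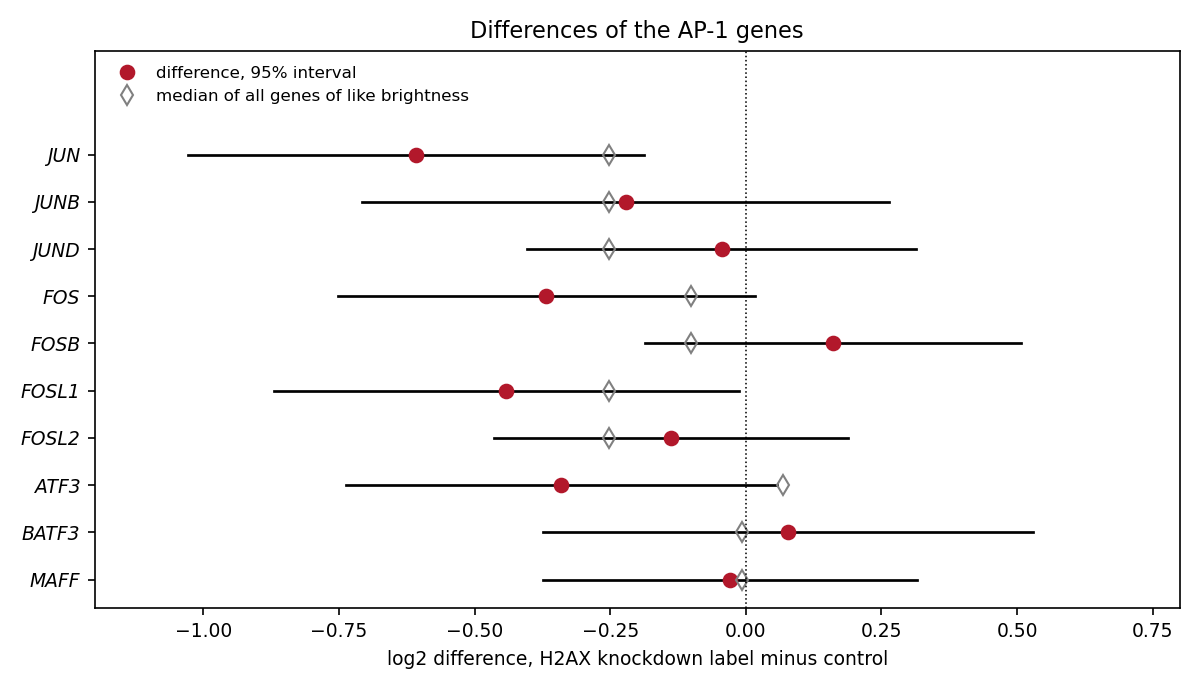
Log2 difference of each AP-1 gene, arrays labelled H2AX knockdown minus control (red points), with limma's 95% interval (lines) and the median difference of all genes in the same of 5 bins of mean signal (open diamonds). The intervals of JUN and FOSL1 lie below 0, and both hold the median of their brightness bin, −0.25.

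Knockdown-labelled replicate 1 was the lowest of the 6 arrays for 8 of the 10 AP-1 genes, all but FOSB and BATF3. The median of the 10 genes, set against the control means, was −0.45 in that array, −0.02 in replicate 2 and −0.15 in replicate 3, and between −0.02 and 0.05 in the 3 controls. The brightest bin of all genes stood at −0.45, −0.15 and −0.13 in the same knockdown-labelled arrays. In control replicates 1, 2 and 3 that bin stood at 0.14, −0.15 and 0.01. Without replicate 1, the AP-1 median was −0.07, 6 genes were below 0 and 1 (JUN) had an unadjusted p under 0.05. Over all genes without that array, the median was −0.01, 52.9% were below 0 and 5.33% were lower at that cut. The part of this array in the differences was otherwise not tested.

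The patterns most like those of JUN and ATF3 were sought among all genes by Pearson's r over the 6 arrays, as a description. For JUN the nearest were NUDT5 (r = 0.999), EPB41L5 (0.998) and PLPP5 (0.998), and 483 genes had an r above 0.95. For ATF3 they were NKX2-5 (0.992), FNBP1 (0.990) and C8orf58 (0.986), and 60 genes were above 0.95. With 6 arrays that share groups and normalization, values this high are found for many genes.

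Genes that act before and after AP-1 were described with the same fit, from lists drawn up with earlier results of these data known, and none of their members passed the threshold over all genes. The MAP kinase cascade, 13 of 16 genes measured, had a median of −0.22 and 10 genes below 0. Of the 13, 7 lay in the brightest bin, where 85.3% of genes were below 0, against 51.5% of all genes. At an unadjusted p under 0.05 it held 2 lower genes and 0 higher, where 8.38% of all genes were lower and 3.78% higher. Those 2 were MAPK8, which encodes JNK1, a kinase that phosphorylates JUN (−0.44, limma adjusted p = 0.362), and RPS6KA3, a kinase acting after ERK (−0.42, adjusted p = 0.406). MAPK8 read 3.18, 3.37 and 3.61 under the knockdown label and 4.01, 3.63 and 3.85 in control cells, with no overlap. MAP2K1, the ERK kinase MEK1, was at −0.39 (adjusted p = 0.468).

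The factors that act on the FOS and JUN promoters were all below 0, 7 of 7, with a median of −0.29. Of the 7, 1 was lower at an unadjusted p under 0.05, as were 8.38% of all genes. ELK3, a partner of SRF, was at −0.53 (limma adjusted p = 0.357), CREB1 at −0.39 (0.426) and SRF itself at −0.41 (0.513). The groups overlapped for SRF, which read 3.99, 5.11 and 4.87 under the knockdown label and 5.18, 4.84 and 5.20 in control cells, and replicate 1 was again the lowest. Of these 7 genes 5 lay in the brightest bin, where 85.3% of genes were below 0, against 51.5% of all genes.

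The ubiquitin ligases and RNA decay factors that limit FOS and JUN were below 0, 7 of 7, with a median of −0.21. Of the 7, 3 lay in the brightest bin, where 85.3% of genes were below 0, against 51.5% of all genes. ZFP36L1, which promotes decay of AU-rich mRNAs, was at −0.46 (limma adjusted p = 0.398), ITCH, a ligase of JUN and JUNB, at −0.23 (0.566) and ZFP36L2 at −0.30 (0.631). Only ZFP36L1, 1 of the 7, was lower at an unadjusted p under 0.05, as were 8.38% of all genes. Of 7 MAP kinase phosphatases 6 were below 0, with a median of −0.20, 0 at an unadjusted p under 0.05 and 3 in the brightest bin. DUSP5 was at −0.38 (adjusted p = 0.458), DUSP1 at −0.35 (0.507) and DUSP10 at −0.19 (0.656).

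Other zipper proteins, 12 of 14 measured, had a median of −0.13 with 10 below 0, and 5 of the 12 lay in the brightest bin. Below 0 were 51.5% of all genes and 85.3% of those in that bin. At an unadjusted p under 0.05, where 8.38% of all genes were lower, 1 of the 12 was lower, NFE2L2. That gene, the antioxidant regulator NRF2 and a partner of small MAF proteins, was at −0.43 (limma adjusted p = 0.35). BATF, a relative of BATF3 prominent in lymphocytes, was at 0.40 (0.451) and ATF4, the amino acid stress factor, at −0.28 (0.589).

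The other immediate early genes, 15 of 17 measured, had a median of −0.20 with 10 below 0, beside 51.5% of all genes. Of the 15, 7 lay in the brightest bin, where 85.3% of genes were below 0. By an unadjusted p under 0.05, 2 of the 15 were lower and 0 higher, beside 8.38% and 3.78% of all genes. NR4A2, an orphan nuclear receptor, was at −0.66 (limma adjusted p = 0.289), close to the value of JUN. It read 4.30, 4.37 and 4.70 under the knockdown label and 5.43, 4.73 and 5.19 in control cells. IER3 was at −0.47 (adjusted p = 0.389) and PPP1R15A, the stress phosphatase subunit GADD34, at −0.36 (0.428).

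Among genes described as AP-1 targets, 21 of 24 measured, 17 were below 0, beside 51.5% of all genes, and the median was −0.19. By unadjusted p under 0.05, 6 of them were lower and 0 higher, where 8.38% of all genes were lower and 3.78% higher. The 3 with the smallest p were the chemokine CCL2 (−1.13, limma adjusted p = 0.074), the cytokine IL6 (−0.82, 0.192) and the chemokine CXCL8 (−0.74, 0.209), each of which is also an NF-kB target. CCL2 read 5.80, 6.07 and 6.07 under the knockdown label and 7.39, 6.77 and 7.15 in control cells, a gap wider than that of any AP-1 gene. The groups did not overlap for 7 of the 21, each lower (9.82% of all genes). In the brightest bin, where 85.3% of genes were below 0, lay 14 of the 21.

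**Figure D3:**
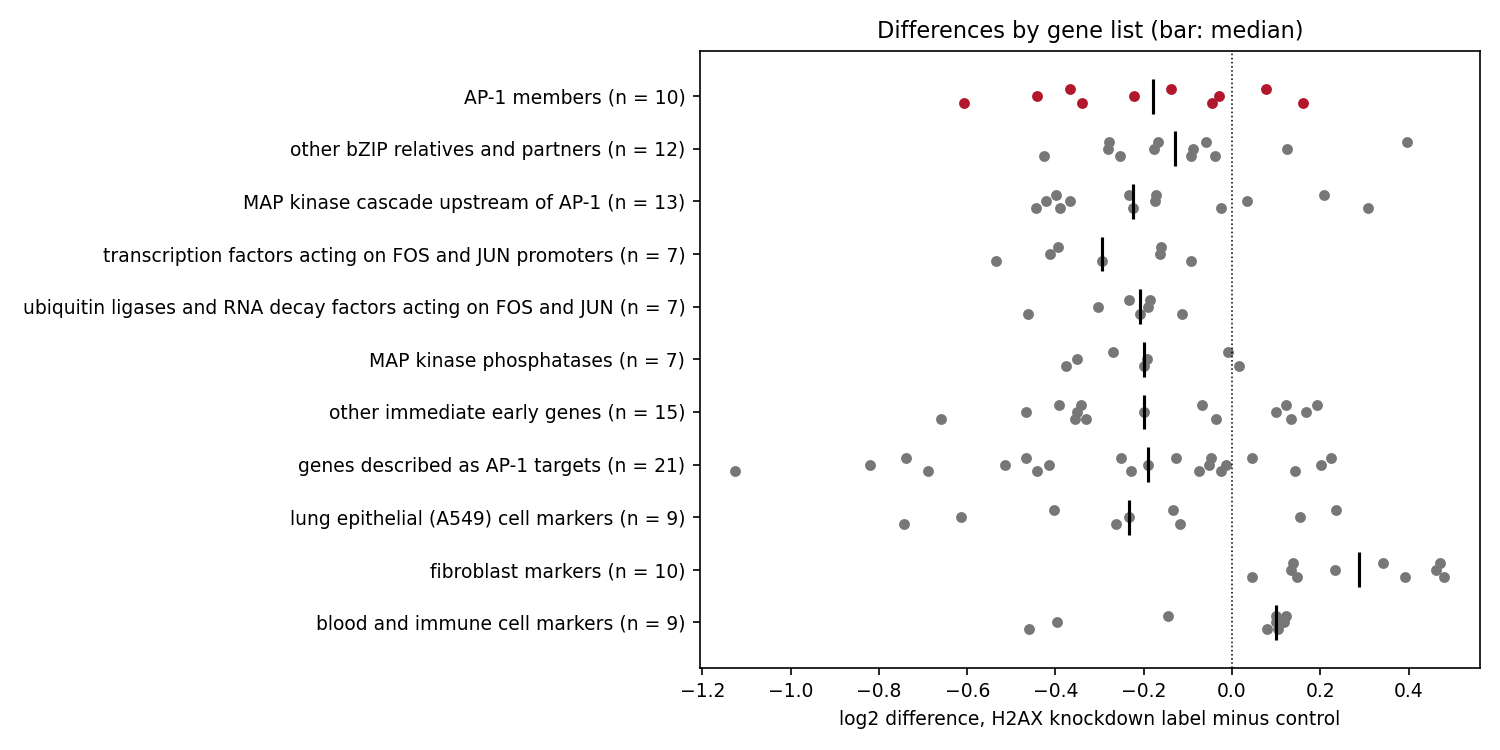
Log2 difference of each measured gene (points; AP-1 genes in red), arrays labelled H2AX knockdown minus control, for the AP-1 genes, 7 lists of related genes and 3 lists of cell markers, with each list's median as a bar. All 8 lists of AP-1 and related genes have medians below 0, from −0.29 to −0.13. The median of all genes is −0.01. In the brightest of 5 bins of mean signal it is −0.25, and in the dimmest 0.15. Of the marker lists, the lung epithelial (A549) list has a median of −0.23, the fibroblast list 0.29 and the blood and immune list 0.10.

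Markers of cell type were measured beside these. Of 9 measured lung epithelial and A549 markers (of 10 listed) 7 were below 0, with a mean signal of 6.56 to 6.86 in knockdown-labelled arrays and 6.85 to 7.08 in controls, and 7 of the 9 lay in the brightest bin. CLDN1 was at −0.74 (limma adjusted p = 0.209), ALDH1A1 at −0.61 (0.273) and AKR1C3 at −0.40 (0.365). All 10 fibroblast markers were above 0, with a mean signal of 3.05 to 3.39 in knockdown-labelled arrays and 2.83 to 2.96 in controls. Below 0 were 51.5% of all genes, 85.3% of those in the brightest bin and 18.3% of those in the dimmest. At an unadjusted p under 0.05, 2 fibroblast markers were higher and 0 lower. By the same cut 3 epithelial markers and 1 blood and immune marker were lower, and 0 of either higher. Of all genes 8.38% were lower and 3.78% higher. POSTN was at 0.48 (adjusted p = 0.31), LUM at 0.47 (0.376) and DCN at 0.46 (0.423), and 4 of the 10 lay in the dimmest bin. Of 9 measured blood and immune markers (of 10) 6 were above 0, with a mean signal of 3.95 to 3.98 in knockdown-labelled arrays and 3.90 to 4.21 in controls. CD68, a lysosomal glycoprotein known from macrophages, was at −0.46 (0.364), LYZ at −0.40 (0.413) and TYROBP at −0.14 (0.77). These 3, which had the smallest p, were the only ones below 0. The 6 above 0 were PTPRC and CD3E (each 0.12), CD14, NKG7 and HBB (each 0.10) and CSF1R (0.08). Absence cannot be read from these values, and the part of other cells in the AP-1 differences was not tested.

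How far the AP-1 differences held was followed over 15 other settings. The replicate block, signal filter, averaged or single probe sets and intensity trend left these differences as they were and changed only p-values. Only the other settings could turn a sign. JUN, FOS, FOSL1 and ATF3 were below 0 in each setting that measured them, from −0.77 to −0.44 for JUN, −0.47 to −0.20 for FOS, −0.59 to −0.16 for FOSL1 and −0.47 to −0.16 for ATF3. FOSB was above 0 in all 15, from 0.06 to 0.23. FOSL2, JUNB, JUND, BATF3 and MAFF took both signs. No AP-1 gene passed the threshold in any of the 15, and the smallest limma adjusted p was 0.0758, for JUN with array weights. Those weights were 5.03 for control replicate 3 and 0.41 to 1.22 for the other arrays. The median of the 10 genes was −0.01 after quantile normalization and 0.01 after cyclic loess, where the median over all genes was −0.03 and −0.02.

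**Figure D4:**
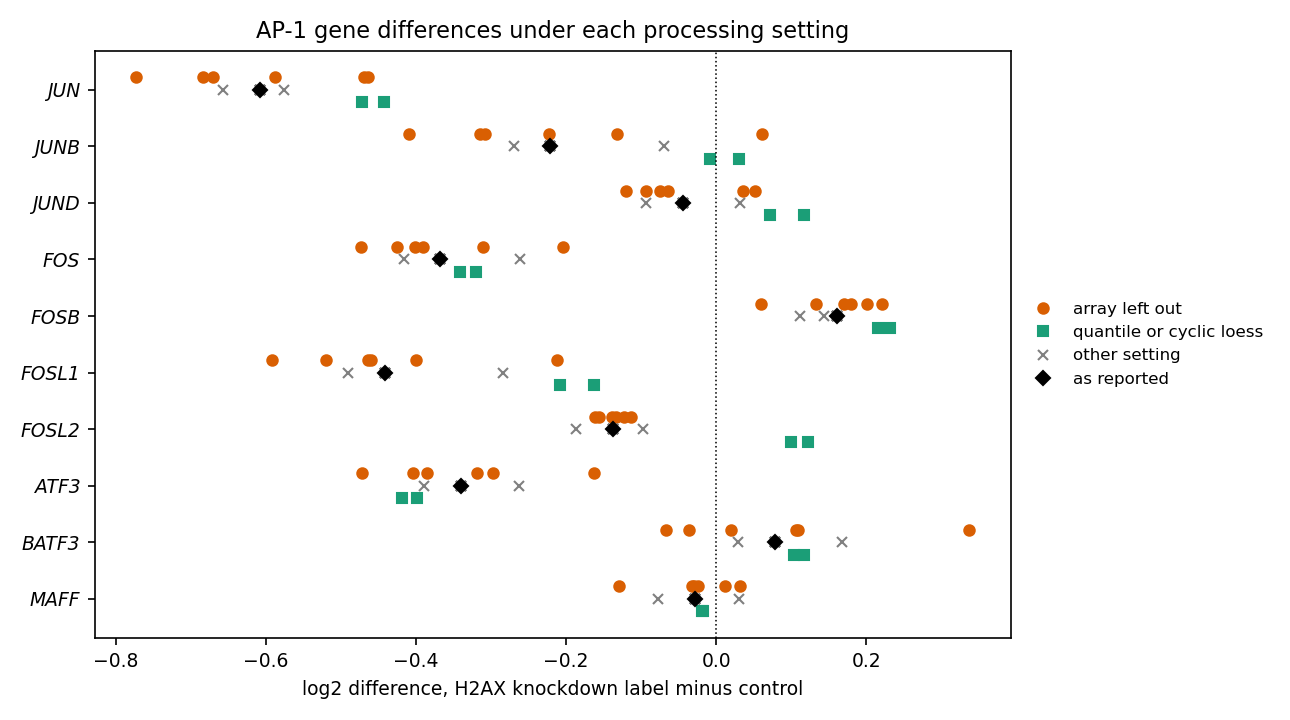
Log2 difference of each AP-1 gene, arrays labelled H2AX knockdown minus control, as reported (black diamonds), with 1 array left out (orange circles), after quantile normalization or cyclic loess (green squares) and under the other settings (grey crosses). JUN, FOS, FOSL1 and ATF3 stay below 0 and FOSB above 0, and the other 5 genes take both signs.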

How the data were processed

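RNA was measured on Affymetrix arrays in 3 H2AX knockdown-labelled and 3 control samples, grouped by their titles. Per the labels' protocols, 6 ug of RNA a sample gave the biotin-labelled cRNA. The values are log2 signals of 33297 probe sets deposited by the authors, processed by RMA according to the submitters' processing notes (its version is not given in the sources used here). Their scale was read from the values (0.611 to 13.2). The dose unit in the labels appears cut short, so no dose is given.

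Of the probe sets 19460 had 1 gene in the platform annotation, parts of which may be outdated, 1754 had several and 12083 had none, and 19429 were matched by Entrez number to current names. A single probe set, that of highest mean, stood for each of 18417 genes, with no filter. Genes were tested with limma 3.58.1 (R 4.3.3; lmFit and eBayes), knockdown-labelled minus control, with 2-sided p-values adjusted by Benjamini-Hochberg across the whole table. The SD in the text is over 3 arrays. Array number limits the precision. The procedure was tested on simulated data. The members and lists were chosen with earlier results of these data known. Named were all AP-1 genes, H2AX, the 3 genes of smallest p in each other list and the 3 nearest to JUN and to ATF3. Alternatives were a replicate block, a signal filter, quantile and cyclic loess normalization, array medians subtracted, probe sets averaged or tested singly, an intensity trend, array weights and each array left out. Figures were drawn with matplotlib 3.10.9.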

Additional observations from a re-analysis of the deposited data

How the results depend on the processing

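The count of AP-1 genes past the threshold was 0 in all 15 alternatives, and the difference of H2AX was between 0.01 and 0.28. Over all genes, where 6 passed, the count was 3 with the replicate number as a block (1830 at an unadjusted p under 0.05), 3 with probe sets averaged, 16 with dim genes filtered, 191 with array weights, and 0 after quantile normalization or cyclic loess in limma (1495 and 1511 at an unadjusted p under 0.05). It was 0 to 9 with 1 array left out. The array weights were 5.03 for control replicate 3 and 0.41 to 1.22 for the other arrays. The AP-1 median moved from −0.18 to −0.014 after quantile normalization and 0.0062 after cyclic loess. The replicate block changed no AP-1 call. No pairing by replicate number was seen. Deviations of same-numbered arrays from their group means correlated at −0.31, −0.02 and 0.07, and 0 of 3 knockdown-labelled arrays matched their own number best. From 3 arrays a group these values cannot exclude a pairing. Of 149 differences of single AP-1 genes 135 kept their sign and 14 turned, and none had been called. Many of the 135 could not turn. Under the replicate block, signal filter, averaged or single probe sets and intensity trend, the differences equal those first reported. FOSL2 turned to 0.10 after quantile normalization and 0.12 after cyclic loess, JUND to 0.072, 0.12 and, with array weights, 0.031, JUNB to 0.030 after cyclic loess and MAFF to 0.030 with array weights. With 1 array left out JUNB ran from −0.41 to 0.061, JUND from −0.12 to 0.052, BATF3 from −0.067 to 0.34 and MAFF from −0.13 to 0.032. The cause was not tested. ATF3 had no value under the filter, since its signal is below the median. With 3 arrays a group, the AP-1 intervals are 0.65 to 0.97 log2 units wide.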
